A study of Mus musculus with 6 samples.

Results

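The genes described here are 42 genes of macrophages, mast cells and leukocytes in general, measured in whole embryonic mouse pancreata. They were taken from a fixed list of gene symbols, each of which matched 1 Ensembl identifier among the 37224 of the deposited count table, and 41 of them passed a filter on low counts (all but *Timd4*). The 13.5 and 15.5 days post coitum (dpc) stages of wild-type (wt) C57/Bl6J embryos were compared, with 3 samples each and no treatment. Each sample pooled the pancreata of up to 3 embryos, so it holds epithelium, mesenchyme, vessels and blood cells together, and the samples of a stage are described as independent. Values for single genes are given as normalised counts, which are read counts scaled to a common effective library size. A gene was called when the edgeR test of 15.5 against 13.5 dpc gave an adjusted p at or below 0.05 over the 15578 genes tested.

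Tissue macrophages settle in the fetal organs before birth, and many of them descend from precursors of the yolk sac and the fetal liver. They depend on the receptor that *Csf1r* encodes and on its ligands Csf1 and Il34, they clear dying cells, and they are a main source of the complement protein C1q, which is built from the chains of *C1qa*, *C1qb* and *C1qc*. Mast cells and granulocytes are separate myeloid lineages with their own proteases, and antigen presentation through MHC class II marks dendritic cells, B cells and some macrophages.

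Between 13.5 and 15.5 dpc the leukocyte genes did not move together. The analysis called 8 of the 41 tested genes higher at 15.5 dpc (*C1qa*, *Il34*, *Cd74*, *H2-Aa*, *Cd14*, *Cd163*, *Cpa3* and *Lgals3*) and 6 lower (*Csf1*, *Adgre1*, *Csf1r*, *Cx3cr1*, *Mpo* and *Fcgr1*), and 27 did not pass the test (edgeR). Among all genes tested, 11.6% were called higher and 10.7% lower. DESeq2 called 8 and 7 of them, beside 15.2% and 12.2% of all genes. The 3 samples of 15.5 dpc lay wholly above those of 13.5 dpc for 11 of the 41 genes and wholly below for 10, beside 22.8% and 23.6% of all genes. The median log2 fold change of the 41 genes was 0.01, beside -0.01 for all genes. With library size as the only scaling, which put the median of all genes at -0.22, 6 were called higher and 10 lower, beside 1133 and 2952 of all genes against 1805 and 1662 with TMM. Together they held between 0.0701% and 0.0793% of the reads of a sample. The whole organ was measured. Changes in leukocyte number, in RNA per leukocyte and in RNA of other cells thus cannot be told apart in any of these values.

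**Figure D1:**
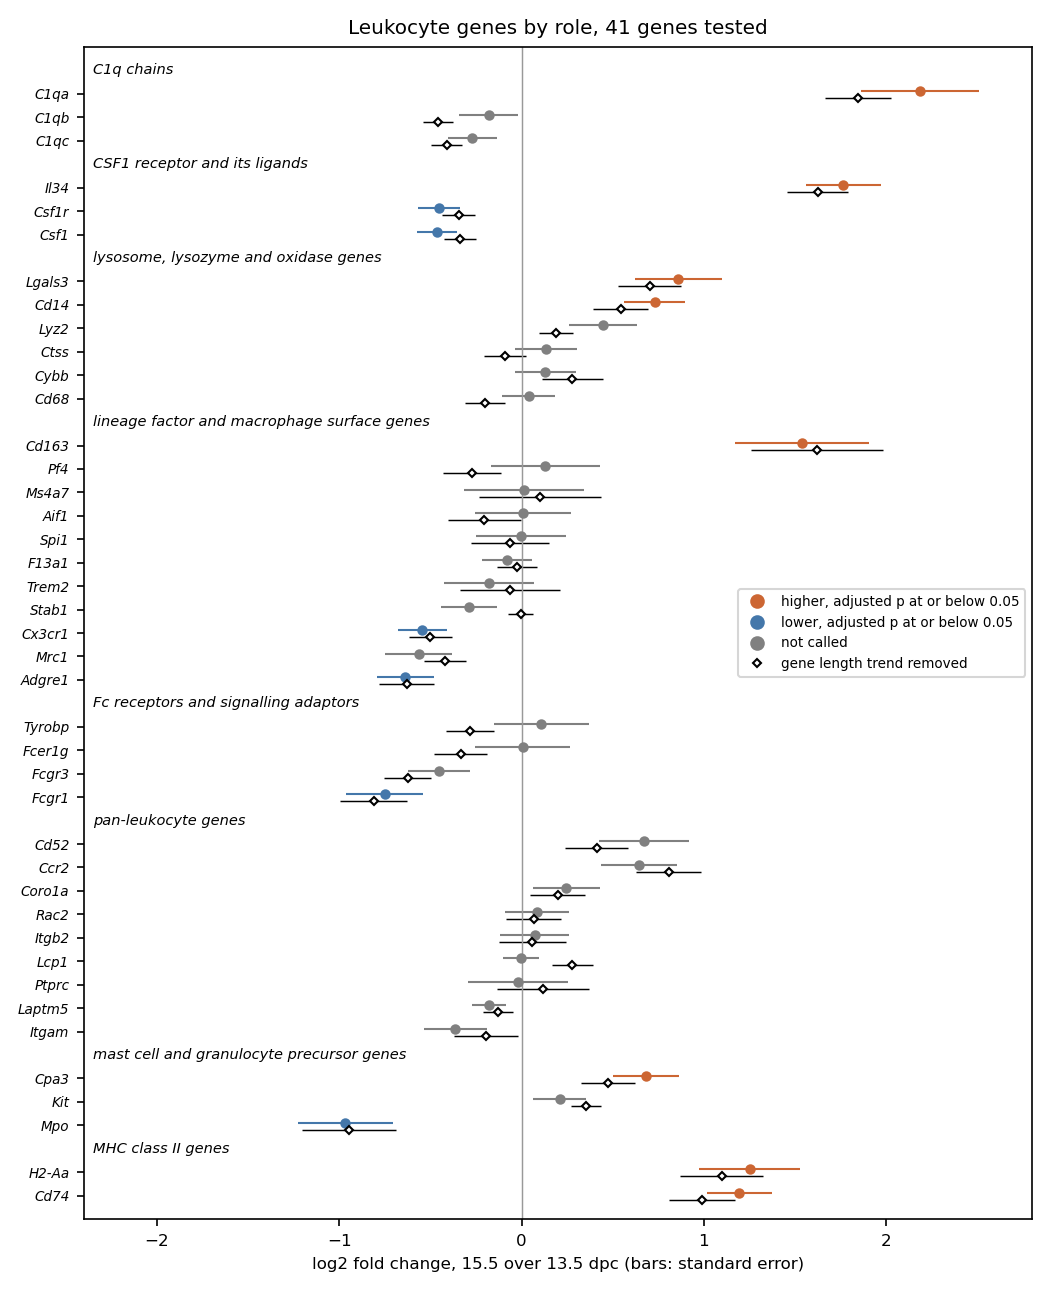
Log2 fold change (15.5 over 13.5 dpc, horizontal axis) of the 41 tested leukocyte genes, grouped by role, with bars for the standard error. Filled circles are the edgeR values, coloured where called higher (8 genes) or lower (6 genes), and open diamonds are the values after the trend of each library with gene length was removed, where *C1qb* and *C1qc* lie at -0.46 and -0.41.

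Total counts per sample ranged from 10546028 to 16389237. The 15.5 dpc samples differed more among themselves than those of 13.5 dpc, and their difference followed gene length. The log2 difference between 15.5 dpc replicates 1 and 2 had a rank correlation of -0.594 with exon length across genes, which are not independent, with shorter genes higher in replicate 1. For replicates 1 and 3 it was -0.501 and for 2 and 3 it was 0.530. At 13.5 dpc it was -0.028 for replicates 1 and 2, -0.328 for 1 and 3 and -0.314 for 2 and 3. All 18 tested leukocyte genes with under 2000 exon bases were highest in replicate 1 among the 15.5 dpc samples, whereas 14 of the 23 longer ones were highest in replicate 2. Among the 18 shorter genes, 7 were called and all 7 were higher (edgeR), beside 14.9% higher and 4.17% lower of the 3817 genes of that length. Their median log2 fold change was 0.29, beside 0.28 for all genes of that length. Among the 23 longer ones, 1 was called higher and 6 lower, beside 10.5% and 12.8% of the 11761 genes of that length, and the median was -0.08 for both. The split at 2000 bases was chosen after the values were seen.

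For this reason the fold changes of called genes are accompanied below by the value after a smooth trend of every library with gene length was taken out (the length-adjusted value). In that fit 10 of the 41 genes were called higher and 10 lower, beside 18.1% and 14.7% of all genes, with a median log2 fold change of -0.03. In it 11 genes lay wholly above and 13 wholly below, beside 26.2% and 24.1% of all genes. All 14 genes called before the adjustment were called after it in the same direction, and the 6 added were *Ccr2* and *Kit* (higher) and *C1qb*, *C1qc*, *Mrc1* and *Fcgr3* (lower). Among the shorter genes the adjusted fit called 7 higher and 3 lower, beside 17.3% and 10.7% of all genes of that length, and among the longer ones 3 higher and 7 lower, beside 18.3% and 16%. What made the libraries differ by gene length was not tested.

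**Figure D2:**
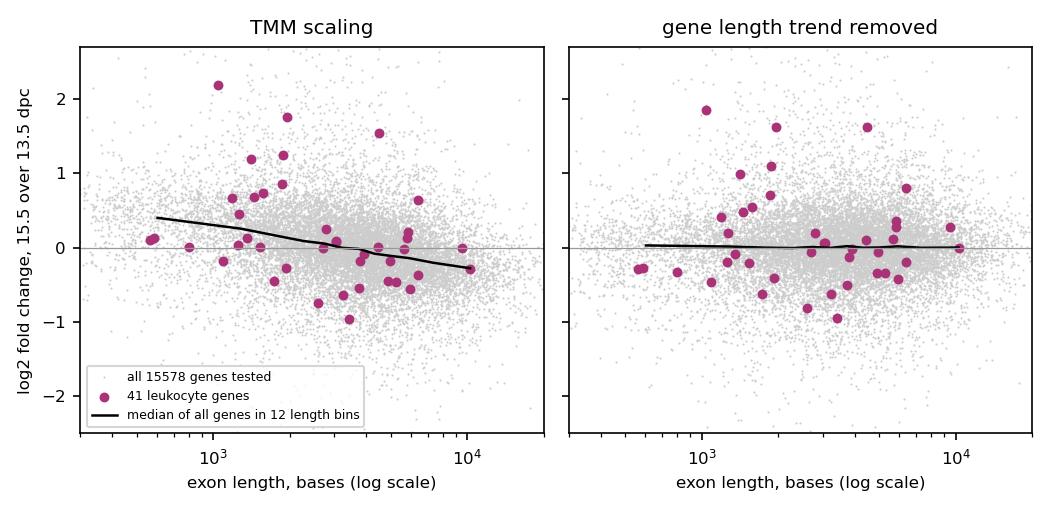
Log2 fold change (15.5 over 13.5 dpc, vertical axis) against exon length in bases (log scale) for all 15578 genes tested (grey) and the 41 leukocyte genes (purple), before (left) and after (right) the length trend was removed. Genes beyond the plotted range are not drawn. The black line, the median of all genes in 12 length bins, falls with length on the left (rank correlation -0.36 across genes) and lies near 0 on the right.

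The promoters shown are those of *C1qb*, a chain of C1q, of *Fcgr1* and *Mrc1*, macrophage genes with lower values at 15.5 dpc, and of a pair of MHC class II genes. They are RefSeq sequences of GRCm38.p6, 250 bases before the annotated start, written 5′ to 3′ on the strand of the gene. *Fcgr1* encodes the high-affinity receptor for IgG and *Mrc1* the mannose receptor of macrophages. The annotations place some starts differently, so the last 22 bases shown for *Mrc1* lie in the gene by GENCODE, and the last 4 for *H2-Aa* by the deposited gene model. Capitals mark GAGGAA or its reverse complement TTCCTC, a core that PU.1, the factor encoded by *Spi1*, is known to bind.
C1qb, chr4:136886201-136886450, minus strand: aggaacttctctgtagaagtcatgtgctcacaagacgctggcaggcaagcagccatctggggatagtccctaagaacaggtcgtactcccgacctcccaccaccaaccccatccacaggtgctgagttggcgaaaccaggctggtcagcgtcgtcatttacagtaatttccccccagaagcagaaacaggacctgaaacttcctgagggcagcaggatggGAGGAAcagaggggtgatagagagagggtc
Fcgr1, chr3:96293970-96294219, minus strand: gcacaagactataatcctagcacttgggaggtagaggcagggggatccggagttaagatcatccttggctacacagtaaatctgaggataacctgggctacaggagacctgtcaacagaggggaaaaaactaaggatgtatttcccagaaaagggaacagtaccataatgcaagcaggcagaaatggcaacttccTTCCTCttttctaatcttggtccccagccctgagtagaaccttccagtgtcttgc
Mrc1, chr2:14229164-14229413, plus strand: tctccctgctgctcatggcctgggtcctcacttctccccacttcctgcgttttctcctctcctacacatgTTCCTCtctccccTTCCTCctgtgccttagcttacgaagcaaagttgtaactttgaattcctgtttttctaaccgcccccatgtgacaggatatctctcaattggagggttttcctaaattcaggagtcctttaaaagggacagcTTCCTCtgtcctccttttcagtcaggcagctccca
*H2-Aa* and *H2-Eb1*, which is not among the 42, encode MHC class II chains and were both called higher at 15.5 dpc. Capitals mark GATTGG or its reverse complement CCAATC, which holds a CCAAT box.
H2-Aa, chr17:34287824-34288073, minus strand: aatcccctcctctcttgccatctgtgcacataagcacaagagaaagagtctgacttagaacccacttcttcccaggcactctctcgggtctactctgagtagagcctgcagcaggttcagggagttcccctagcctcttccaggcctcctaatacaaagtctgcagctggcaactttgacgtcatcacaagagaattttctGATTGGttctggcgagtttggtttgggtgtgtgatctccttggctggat
H2-Eb1, chr17:34305617-34305866, plus strand: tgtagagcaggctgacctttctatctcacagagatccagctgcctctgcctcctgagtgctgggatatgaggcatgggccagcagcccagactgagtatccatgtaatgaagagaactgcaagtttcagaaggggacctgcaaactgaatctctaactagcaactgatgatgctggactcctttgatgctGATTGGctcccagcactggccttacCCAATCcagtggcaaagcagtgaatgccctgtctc

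The match in *C1qb* began 30 bases before the start and that in *Fcgr1* 55 bases before it. *Mrc1* had 3 matches, at 180, 167 and 35 bases before the start. *H2-Aa* had 1 match of GATTGG at 49 bases and *H2-Eb1* had 2, at 60 and 35 bases. Promoters were found for 31 of the 42 genes, which have 38 promoters in the table. GAGGAA on either strand lay in 19 of these 38, from 17 genes, whereas it lay in 23.3% of the 32851 promoters of that length. The longer string GAGGAAG, which contains GAGGAA, lay in 13 of the 38 and in 10.6% of all. GATTGG lay in 4 of the 38 (*Cd163*, *Cd68*, *H2-Aa* and *Trem2*) and in 14.6% of all. These matches describe letters in a window and are not binding sites. No promoter entry was found for *Adgre1*, *C1qa*, *Cd14*, *Cd52*, *Cd74*, *Csf1r*, *Il34*, *Itgb2*, *Rac2*, *Spi1* and *Tyrobp*.

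The C1q chains were the first group. C1q opens the classical complement cascade, and it is assembled from equal numbers of its A, B and C chains. Their genes lie next to each other on the minus strand of mm10 chromosome 4, *C1qb* from 136880129 to 136886187, *C1qc* from 136889804 to 136893065 and *C1qa* from 136895917 to 136898803. Per length, in RPKM (reads scaled by exon length and library size), *C1qa* had the highest mean of the 42 genes at 13.5 dpc (29.6 ± 1.19, SD, n = 3), followed by *C1qb* (27.2 ± 0.724).

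In 13.5 dpc replicates 1, 2 and 3, *C1qa* gave 395, 401 and 371 normalised counts, and in the 15.5 dpc replicates it gave 2749.8, 1082 and 1479.6. Every 15.5 dpc sample lay above every 13.5 dpc sample, and replicate 1 was far above the other two. The log2 fold change was 2.18 (SE 0.32, adjusted p = 0.00436, edgeR), and the length-adjusted one was 1.85.

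*C1qb* gave 365, 385 and 372 in the 13.5 dpc samples against 409.6, 263 and 322 in the 15.5 dpc samples. The stages overlapped through 15.5 dpc replicate 1, and the log2 fold change of -0.18 (SE 0.16) did not pass the test (adjusted p = 0.436, edgeR). *C1qc* gave 328, 358 and 309.6 and then 318, 240.3 and 269, with a log2 fold change of -0.27 (SE 0.13, adjusted p = 0.176, edgeR). Both were called lower in the length-adjusted fit, at -0.46 and -0.41, and their stages were then apart. Both were also called lower without 15.5 dpc replicate 1, at -0.36 and -0.38.

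The ratio of chains within a library does not depend on library scaling. For *C1qa* counts over the mean of *C1qb* and *C1qc* counts it was 1.14, 1.08 and 1.09 in the 13.5 dpc samples and 7.56, 4.3 and 5 in those of 15.5 dpc. All 3 samples of the later stage were higher, by 2.31 on the log2 scale on average, and the two-sided exact permutation test gave p = 0.1, the smallest that 3 against 3 samples allow. In contrast, *C1qb* over *C1qc* was 1.11, 1.07 and 1.2 at 13.5 dpc and 1.29, 1.09 and 1.2 at 15.5 dpc, a log2 difference of 0.08 (exact permutation test, p = 0.5). The ratio of *C1qa* to its neighbours thus did not overlap between the stages, while that of the neighbours to each other did. None of the 50-base windows of the 3 genes (0%) occurs in another annotated transcript.

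The receptor CSF1R and its ligands formed the second group. *Csf1r* gave 599, 628 and 629 normalised counts at 13.5 dpc and 447, 509 and 398 at 15.5 dpc. The stages did not overlap, and the gene was called lower with a log2 fold change of -0.45 (SE 0.11, adjusted p = 0.0293, edgeR) and a length-adjusted one of -0.34. Exons of *Hmgxb3* on the opposite strand overlap 17.8% of its exon bases, and the sources used here do not state whether counting used the strand.

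*Csf1*, the ligand that supports most tissue macrophages, gave 404, 394 and 437 at 13.5 dpc and 291, 327 and 275 at 15.5 dpc. It was also lower in all 3 samples of the later stage, with a log2 fold change of -0.47 (SE 0.11, adjusted p = 0.0234, edgeR) and a length-adjusted one of -0.34. The ratio of *Csf1* to *Csf1r* counts was 0.674, 0.627 and 0.694 at 13.5 dpc and 0.650, 0.643 and 0.690 at 15.5 dpc, and it differed by -0.01 on the log2 scale (exact permutation test, p = 0.9).

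*Il34*, the second ligand of the same receptor and one known from skin and brain, went the other way. Its normalised counts were 29.2, 42.9 and 33.0 in the 13.5 dpc samples and 143, 103 and 113 in the 15.5 dpc samples, without overlap. The log2 fold change was 1.76 (SE 0.21, adjusted p = 0.00183, edgeR) and 1.62 after the length adjustment. Exons of *Gm15895* and *Gm15894* on the opposite strand overlap 3.83% and 1.12% of its exon bases. For *Il34* over *Csf1* the count ratio was 0.0722, 0.109 and 0.0757 at 13.5 dpc and 0.490, 0.316 and 0.413 at 15.5 dpc. All the later samples were higher, by 2.25 on the log2 scale (exact permutation test, p = 0.1, the smallest possible). Per length *Il34* stood at 4.84 ± 0.824 RPKM (SD, n = 3) at 15.5 dpc, close to *Csf1* at 4.47 ± 0.406.

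**Figure D3:**
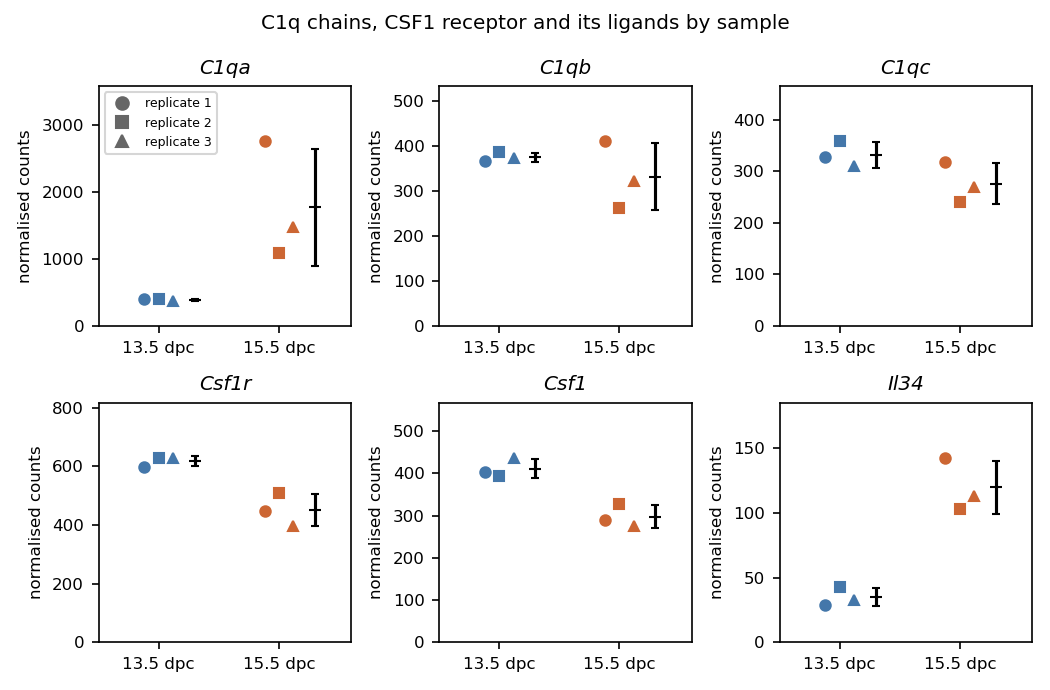
Normalised counts (vertical axes, from 0) of the C1q chains, *Csf1r*, *Csf1* and *Il34* in the 3 samples of 13.5 dpc (blue) and the 3 of 15.5 dpc (orange), with circle, square and triangle for replicates 1, 2 and 3 and black bars for the mean and SD. *C1qa* and *Il34* lie higher in every 15.5 dpc sample, *Csf1r* and *Csf1* lie lower, and *C1qb* and *C1qc* overlap between the stages.

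Of the 12 lineage and surface genes of macrophages, 11 were tested, of which 1 was called higher and 2 lower (edgeR), with a median log2 fold change of -0.08. Among all genes 11.6% were called higher and 10.7% lower, and the counts of each group and list below stand beside the same shares. *Adgre1*, which encodes the F4/80 antigen, gave 174, 160.3 and 168 normalised counts at 13.5 dpc and 92.7, 129.9 and 98.2 at 15.5 dpc. *Cx3cr1*, the receptor of the chemokine fractalkine, gave 308, 282 and 328 and then 176, 232 and 220.4. Neither gene overlapped between the stages, and their log2 fold changes were -0.64 (SE 0.16, adjusted p = 0.0272, edgeR) and -0.54 (SE 0.14, adjusted p = 0.0293, edgeR). Length-adjusted, they were -0.63 and -0.50.

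*Mrc1*, whose promoter is shown above, gave 553, 592 and 566 at 13.5 dpc and 291, 496 and 368 at 15.5 dpc. All samples of the later stage were lower, yet they spread widely, and the log2 fold change of -0.56 (SE 0.18) missed the threshold (adjusted p = 0.065, edgeR). The length-adjusted value, -0.42, was called lower, as was the DESeq2 one. *Cd163*, the haemoglobin scavenger receptor, was rare, with counts of 3, 10 and 10 at 13.5 dpc and 13, 19 and 14 at 15.5 dpc. It was called higher with a log2 fold change of 1.54 (SE 0.37, adjusted p = 0.0247, edgeR) and 1.62 after the length adjustment, and it passed the filter on low counts through the 15.5 dpc samples.

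*Timd4*, a receptor for phosphatidylserine on resident macrophages, was below the filter, with counts of 8, 12 and 8 at 13.5 dpc and 4, 4 and 4 at 15.5 dpc, and was not tested. The other 7 genes of the group did not pass the test. *Spi1*, the lineage factor PU.1, had 93.9, 100.3 and 103 normalised counts at 13.5 dpc and 144, 76.7 and 79.3 at 15.5 dpc, so 15.5 dpc replicate 1 was the highest of the 6 samples and the other two the lowest. *Aif1* (Iba1), *Ms4a7*, *Pf4*, *F13a1*, *Trem2* and *Stab1* had log2 fold changes between -0.29 (*Stab1*, a scavenger receptor shared with endothelium) and 0.13 (*Pf4*, a chemokine shared with platelets).

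Among the 4 Fc receptor and adaptor genes 1 was called lower. *Fcgr1*, whose promoter is shown above, gave 58.3, 64.3 and 51.7 normalised counts at 13.5 dpc and 44.3, 28.6 and 31.5 at 15.5 dpc. The stages did not overlap, and the log2 fold change was -0.75 (SE 0.21, adjusted p = 0.0421, edgeR), or -0.81 length-adjusted. *Fcgr3*, a low-affinity receptor, had a log2 fold change of -0.45 (adjusted p = 0.0963, edgeR) and was not called, whereas it was called lower after the length adjustment, at -0.62, and without 15.5 dpc replicate 1, at -0.58. It shares 9.58% of its 50-base windows with *Fcgr2b*. The signalling adaptors *Fcer1g* and *Tyrobp* had log2 fold changes of 0.01 and 0.11, which turned to -0.33 and -0.28 after the length adjustment without being called. Both are among the shortest genes of the list, with 800 and 564 exon bases.

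*Cd14* and *Lgals3* were grouped with the lysosome, lysozyme and oxidase genes. Of these 6 genes only *Cd14* and *Lgals3* were called, both higher, by edgeR and by DESeq2. At an unadjusted p under 0.05 (edgeR), 3 were higher and 0 lower, beside 20.2% and 18.9% of all genes. *Cd14*, a co-receptor for lipopolysaccharide, gave 44.6, 39.4 and 37.4 normalised counts at 13.5 dpc and 73.3, 59.3 and 69.3 at 15.5 dpc. *Lgals3*, which encodes galectin-3 and is also made by epithelia, gave 51.9, 48.0 and 38.8 and then 111, 64.4 and 78.1. For both the stages were apart, with log2 fold changes of 0.73 (SE 0.17, adjusted p = 0.021, edgeR) and 0.86 (SE 0.24, adjusted p = 0.0397, edgeR). Length-adjusted, they were 0.55 and 0.70.

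*Lyz2*, lysozyme M, had a log2 fold change of 0.45 (SE 0.19) that was not called (adjusted p = 0.123, edgeR) although its stages did not overlap, and its length-adjusted value was 0.19. It shares 15.4% of its windows with *Lyz1*. *Cd68* and *Ctss*, of the lysosome, and *Cybb*, of the oxidase that forms the oxidative burst, had values of 0.04, 0.13 and 0.13 and were not called.

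None of the 9 genes grouped as pan-leukocyte was called (0 by edgeR, 0 by DESeq2). The group also held *Itgam* and *Ccr2*, which not all leukocytes express. At an unadjusted p under 0.05 (edgeR), 2 of the 9 were higher and 0 lower, beside 20.2% and 18.9% of all genes. *Ptprc*, the common leukocyte antigen CD45, gave 58.3, 46.3 and 58.9 normalised counts at 13.5 dpc and 56.7, 70.6 and 32.7 at 15.5 dpc, with the highest and the lowest value both in the later stage. Its log2 fold change was -0.02 (SE 0.28). *Lcp1*, the leukocyte plastin, gave 463, 507 and 505 at 13.5 dpc and 459, 519 and 492 at 15.5 dpc. The log2 fold change of *Lcp1* was 0.00 (SE 0.10), and 0.28 after the length adjustment, which was not called.

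The remaining pan-leukocyte genes lay between -0.36 (*Itgam*, the integrin CD11b, with 66.3% of its windows shared with *Gm49368*) and 0.67 (*Cd52*, a small surface protein). In this range were *Laptm5*, *Itgb2*, *Rac2* and *Coro1a*, at -0.18, 0.07, 0.09 and 0.25. *Ccr2*, the receptor that calls monocytes out of the marrow, gave 41, 45.4 and 41.7 at 13.5 dpc and 60.9, 84.9 and 52.9 at 15.5 dpc. It was higher in every sample of the later stage, but its log2 fold change of 0.64 (SE 0.21) was not called (adjusted p = 0.0647, edgeR). It was called higher after the length adjustment, at 0.81, and without 15.5 dpc replicate 1, at 0.71.

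Of the 3 genes of mast cells and granulocyte precursors, *Cpa3* was called higher, *Mpo* lower, and *Kit* was not called. *Cpa3*, the carboxypeptidase of mast cell granules, gave 70.2, 88.3 and 72.5 normalised counts at 13.5 dpc and 151, 116 and 106 at 15.5 dpc. The stages did not overlap, and it was called higher with a log2 fold change of 0.68 (SE 0.18, adjusted p = 0.0356, edgeR), or 0.47 length-adjusted. *Mpo*, the myeloperoxidase of granulocyte precursors, gave 41, 26.6 and 29.5 and then 18, 17.4 and 13.9. It was called lower with a log2 fold change of -0.97 (SE 0.26, adjusted p = 0.0359, edgeR), or -0.95 length-adjusted.

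*Kit*, the stem cell factor receptor, is found on mast cells and haematopoietic precursors but also on other cells of the pancreas. It gave 671, 717 and 781 at 13.5 dpc and 703, 999 and 802 at 15.5 dpc, and its log2 fold change of 0.21 was not called (adjusted p = 0.309, edgeR), whereas the length-adjusted value, 0.36, was called higher.

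Both MHC class II genes were called higher. *Cd74*, the invariant chain that guides class II molecules, gave 57.4, 56.6 and 56.0 normalised counts at 13.5 dpc and 149, 139 and 101 at 15.5 dpc. *H2-Aa*, the alpha chain of I-A, gave 15.5, 23.1 and 18 and then 60.9, 35.8 and 40.3. All later samples were above all earlier ones, with log2 fold changes of 1.19 (SE 0.18, adjusted p = 0.00453, edgeR) and 1.25 (SE 0.28, adjusted p = 0.0189, edgeR). With the length adjustment they were 0.99 and 1.10.

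Longer lists of the same cell types and pathways were then read, none of whose genes are among the 42. At an unadjusted p under 0.05, the threshold given beside their counts, 20.2% of all genes were higher and 18.9% lower. Of 6 tested genes of MHC class II and dendritic cells, 3 were called higher and 0 lower (edgeR; at unadjusted p under 0.05, 3 and 0; DESeq2, 3 and 0). They were the class II chains *H2-Ab1* (log2 fold change 1.26, SE 0.24, adjusted p = 0.0118, edgeR) and *H2-Eb1* (1.13, SE 0.23, adjusted p = 0.0151, edgeR) and the peptide-loading subunit *H2-DMa* (1.22, SE 0.36, adjusted p = 0.0475, edgeR). Length-adjusted, they were 1.08, 0.89 and 1.02. *H2-Eb1*, whose promoter is shown beside that of *H2-Aa*, gave 26.4, 22.3 and 15.8 normalised counts at 13.5 dpc and 52.6, 45.0 and 42.8 at 15.5 dpc. MHC class I and its peptide-loading genes, which most cells express, were called higher in 5 of 8 and lower in 0 (edgeR; unadjusted, 7 and 0; DESeq2, 5 and 0), with a median log2 fold change of 0.65. Among them *Psmb9*, an immunoproteasome subunit, was at 1.92, *Tap2*, a peptide transporter, at 1.65, *H2-K1* at 1.26 and *Tapbp*, tapasin, at 0.63, or 1.96, 1.69, 1.19 and 0.64 length-adjusted.

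Of 7 tested mast cell and basophil genes, 3 were called higher and 0 lower (edgeR; unadjusted, 3 and 0; DESeq2, 3 and 0). They were *Tpsb2* and *Cma1*, proteases of mast cell granules, both at a log2 fold change of 1.39, and *Hdc*, the enzyme that makes histamine, at 0.91. Length-adjusted, *Tpsb2* was at 1.10, *Cma1* at 1.08 and *Hdc* at 1.09. *Hdc* gave 43.7, 43.7 and 53.2 normalised counts at 13.5 dpc and 101, 92.0 and 71.8 at 15.5 dpc, so each later sample was above each earlier one. Of 20 monocyte and granulocyte genes 10 were tested, and the rest fell below the filter on low counts. Of the 10, 3 were called lower and 0 higher by edgeR, and 3 and 0 by DESeq2. Unadjusted, 4 were lower and 0 higher. All 10 had a negative log2 fold change, with a median of -0.64. The 3 were the neutrophil granule genes *Ltf* (-1.85), *Ngp* (-1.42) and *Prtn3* (-1.16), which were at -1.90, -1.68 and -1.32 length-adjusted. *Ltf*, lactoferrin, gave 67.4, 89.2 and 94.1 at 13.5 dpc and 37.4, 17.4 and 16.4 at 15.5 dpc, without overlap.

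**Figure D4:**
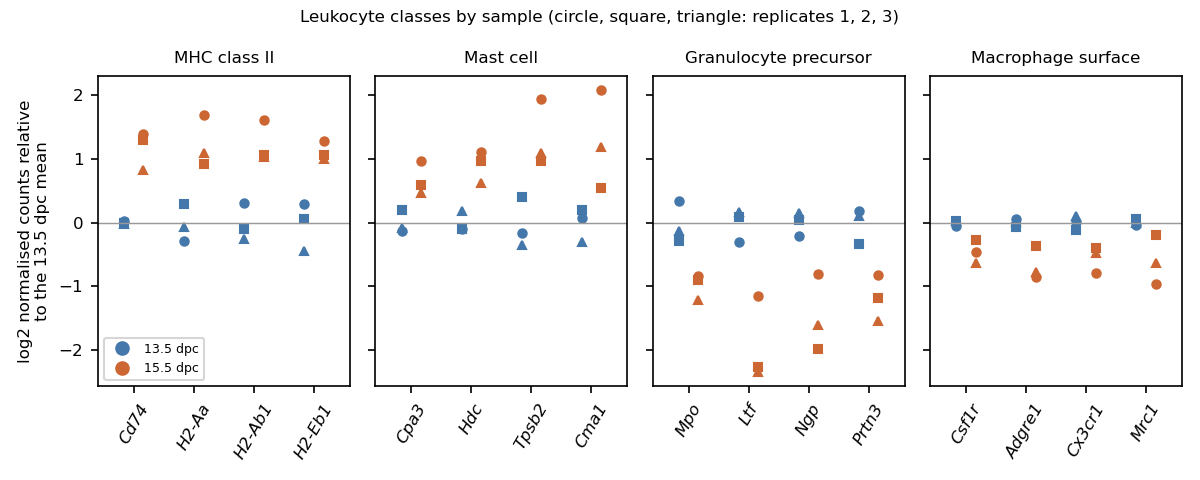
Log2 normalised counts relative to the mean of the 13.5 dpc samples (vertical axis) for 4 genes each of MHC class II, mast cells, granulocyte precursors and the macrophage surface, in the samples of 13.5 dpc (blue) and 15.5 dpc (orange). Every 15.5 dpc sample lies above the 13.5 dpc samples for the first 2 sets and below them for the other 2, and *Mrc1* (-0.56) is the one gene drawn that was not called. The genes were picked after their values were seen and do not stand for their class: of the 11 tested lineage and surface genes of macrophages, 8 were not called, and *Cd163* (1.54), which passed the filter on low counts through the 15.5 dpc samples, was called higher.

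Of 23 tested further tissue macrophage genes, 3 were called higher and 5 lower, beside 11.6% and 10.7% of all genes, and 15 were not called (edgeR; unadjusted, 6 and 7; DESeq2, 5 and 6). Their median log2 fold change was -0.17. *Runx1*, a factor of blood precursors that other cells also express, was at -1.27 (SE 0.16, adjusted p = 0.00267, edgeR), and *Folr2*, a folate receptor of resident macrophages, at -0.97 (SE 0.21, adjusted p = 0.0171, edgeR). *Gas6*, a bridge between dying cells and their receptors, was at 0.61 (SE 0.09, adjusted p = 0.00442, edgeR). Length-adjusted, these 3 were at -1.08, -1.22 and 0.55, and of the 8 calls in the list that of *Maf*, a lineage factor at -0.40, was lost (-0.16). *Maf* was named after its values were seen. *Cbr2*, a carbonyl reductase, was called higher from counts of 2, 2 and 3 at 13.5 dpc to 17, 13 and 10 at 15.5 dpc, too low at the earlier stage for a fold change, and it passed the filter through the 15.5 dpc samples.

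The complement list beyond C1q held 14 tested genes, of which 3 were called higher and 2 lower, beside 11.6% and 10.7% of all genes (edgeR; unadjusted, 6 and 3; DESeq2, 3 and 1), with a median log2 fold change of 0.13. *C1s*, a protease that forms a complex with C1q (named *C1s1* in the annotation), gave 41.9, 44.6 and 38.1 normalised counts at 13.5 dpc. At 15.5 dpc it gave 99.6, 106 and 98.2. Its stages were far apart and it was called higher at 1.29 (SE 0.14, adjusted p = 0.00153, edgeR), also with the length adjustment. *C3ar1*, the receptor for C3a on myeloid cells, was called lower at -0.73 (SE 0.16, adjusted p = 0.0172, edgeR), or -0.65 length-adjusted. *Cd55* and *Cr1l*, regulators that protect cells from complement, were called higher at 0.54 and 0.37. Length-adjusted, *Cd55* was at 0.64, whereas *Cr1l* was at 0.20 and no longer called (adjusted p = 0.105, edgeR). *Masp1*, named after its values were seen, was the other gene called lower, at -1.26, or -1.30 length-adjusted. It reached the count minimum of the filter in 3 samples at 13.5 dpc and in 1 at 15.5 dpc. Of 11 tested genes for other proteins with a C1q domain, 0 were called higher and 4 lower (edgeR; unadjusted, 1 higher and 5 lower; DESeq2, 0 and 3). These were *Emilin1* (-0.89) and *Col8a1* (-1.63) of the extracellular matrix and *C1ql1* (-1.60) and *Cbln3* (-1.01), or -0.78, -1.52, -1.78 and -0.92 length-adjusted. *C1ql1* reached the count minimum of the filter in 3 samples at 13.5 dpc and in 2 at 15.5 dpc.

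Lymphoid genes were mostly near the detection limit, with 6 of 19 tested, 1 called higher and 1 lower, beside 11.6% and 10.7% of all genes (edgeR; unadjusted, 2 and 1; DESeq2, 2 and 1). *Cd3e*, a chain of the T cell receptor complex, gave 27.3, 40.3 and 28.0 normalised counts at 13.5 dpc and 170.2, 119 and 135 at 15.5 dpc. It was called higher at a log2 fold change of 2.14 (SE 0.22, adjusted p = 0.00121, edgeR), or 1.92 length-adjusted. Its partners *Cd3g* and *Cd3d* did not pass the filter, with raw counts from 1 to 6 and from 0 to 2 in the 6 samples, and were named here after their values were seen. *Tcf7*, a factor of T cells and of other embryonic cells, was called lower at -0.69 (SE 0.12, adjusted p = 0.00837, edgeR), or -0.74 length-adjusted. Of 12 tested chemokine and colony stimulating factor genes, 1 was called higher (*Ccl2*, 1.25) and 0 lower (edgeR; unadjusted, 2 higher and 2 lower; DESeq2, 0 and 1). *Ccl2*, a chemokine for monocytes, had counts of 7, 10 and 6 at 13.5 dpc and 11, 18 and 9 at 15.5 dpc. It passed the filter through the 15.5 dpc samples, and its length-adjusted value of 1.01 was not called (adjusted p = 0.0819, edgeR).

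Markers of other tissues were read in the same samples, where 11.6% of all genes were called higher and 10.7% lower. All 10 acinar markers, which belong to the labelled pancreas, were called higher (edgeR), and their summed normalised counts ranged from 97968 to 117733 at 13.5 dpc and from 624565 to 1329732 at 15.5 dpc, highest in replicate 1. Of 8 epithelium markers, 4 were called higher, with sums of 26114 to 27422 and of 34512 to 45537. Of 12 endothelium markers, 1 was called higher, and of 8 mesenchyme markers, 2 were called higher and 1 lower. Of 8 erythroid markers, 1 was called higher and 4 lower, with sums of 11737 to 14524 and of 1127 to 1550.0. *Hbb-bh1*, called lower, reached the count minimum of the filter in 3 samples at 13.5 dpc and in 1 at 15.5 dpc. The spleen and liver list had 3 of 6 lower (*Tlx1*, *Afp* and *Serpina1a*), and 1 of 4 tested megakaryocyte and platelet markers was lower (*Ppbp*, which passed the filter through the 13.5 dpc samples). No marker of these lists was at 0 in all samples. The part of these tissues in the leukocyte values was not tested.

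Under the limits that the study set for differential expression (an adjusted p of up to 0.1, a fold below 0.6 or above 1.6 and a level over 100 in either stage), 4 genes were higher (*C1qa*, *Il34*, *Cpa3* and *Cd74*) and 0 lower, beside 6.47% and 3.9% of the protein-coding genes tested. *C1qa*, *Il34* and *Cd74* were called in each fit that left out 1 sample. The other calls were lost in some of these fits. Without 13.5 dpc replicate 1, 2 or 3 or 15.5 dpc replicate 3, 3, 4, 3 and 3 genes were called higher and 0 lower, out of 1235, 1331, 1402 and 1438 calls among all genes against 3467 with all samples. At an unadjusted p under 0.05, 7, 7, 7 and 6 were lower in these fits, beside 13.5%, 13.6%, 13.6% and 13.2% of all genes. Without 15.5 dpc replicate 1, 9 were called higher and 10 lower, beside 14.1% and 12.8% of all genes.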

How the data were processed

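Poly(A) RNA of whole wt C57/Bl6J pancreata was sequenced, with 3 samples at 13.5 and 3 at 15.5 dpc. The authors made strand-specific libraries, aligned the reads to mm10 with GSNAP and counted the reads with a unique alignment per Ensembl gene with featureCounts 1.4.6. The deposited values are raw counts per gene, without normalisation. Whether counting used the strand is not given in the sources used here. Positions are those of the gene models in the deposited table (mm10), and symbols were looked up by identifier, of which 35449 of 37224 matched.

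The stages were compared with edgeR 4.0.16 in R 4.3.3, using filterByExpr, TMM factors and the quasi-likelihood test on all 6 samples with no covariate, and p-values were adjusted by Benjamini-Hochberg over the 15578 genes tested. Each standard error was derived from the log2 fold change and its F statistic. The length-adjusted fit adds offsets from a lowess curve (span 0.5) of each library against exon length. Ratios were compared with two-sided exact permutation tests over samples. Alternatives were DESeq2 1.42.0, other normalisations and filters, a block for the replicate number, removal of genes holding over 1% of a sample's reads, the limits of the study, and each sample left out in turn. The fits were tested on simulated data. Figures were drawn with Python 3.11.15.

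Total counts per sample were 10546028 to 16389237, and no fold change is given where all samples of a stage lie at or under 3 counts. The members, the other lists and the tests were chosen with earlier results of these data known. All genes of the list are accounted for, with values in every sample for the called ones. From each further list at most the 4 called genes with the lowest p are named, except *Maf*, *Masp1*, *Cd3g* and *Cd3d*.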

Additional observations from a re-analysis of the deposited data

How the results depend on the processing

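*C1qa*, *Il34* and *Cd74* were called higher under every alternative run. The number of leukocyte genes called higher (8) ranged from 3 to 10 when 1 sample was left out and was 4 under the limits of the study, and it stayed between 6 and 10 elsewhere. The number called lower (6) ranged from 0 to 10 when 1 sample was left out, and it was 10 with library size as the only scaling, 10 with the length trend removed, 1 with the replicate block and 0 under the limits of the study. The low counts came without 13.5 dpc replicates 1, 2 or 3 or 15.5 dpc replicate 3, and the 10 lower genes without 15.5 dpc replicate 1. The log2 ratio of *C1qa* to its neighbours stayed between 2.07 and 2.48 under its alternatives.

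With the replicate block, 7 genes were called higher and 1 lower (*Mrc1*, in place of the 6 above), with 2676 of all genes called against 3467. The deviations of samples sharing a number had correlations of 0.22, -0.22 and 0.04, so the numbers were not taken to pair the samples.

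Of the 655 comparisons of a gene's fold change with that under an alternative, 506 kept the direction and the call, 56 lost the call, 27 gained one and 66 changed sign. The cause was not tested. No gene that changed sign was called in the edgeR fit. The median of the 41 genes was -0.21 with library size only, -0.020 with the upper quartile, -0.015 without a filter, -0.0029 with at least 10 counts in every sample, -0.0036 with the replicate block, -0.025 with the length trend removed and -0.035 with both, and between -0.097 and 0.16 without 1 sample.

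With library size only the log2 fold change was -0.18 for *Cd68*, -0.22 for *Aif1*, -0.23 for *Fcer1g*, -0.13 for *Tyrobp*, -0.21 for *Ms4a7*, -0.14 for *Itgb2*, -0.088 for *Ctss*, -0.11 for *Pf4*, -0.079 for *Cybb* and -0.14 for *Rac2*. With the upper quartile the log2 fold change was -0.024 for *Aif1*, -0.027 for *Fcer1g* and -0.02 for *Ms4a7*. With no filter the log2 fold change was -0.018 for *Aif1*, -0.021 for *Fcer1g* and -0.011 for *Ms4a7*. With at least 10 counts in every sample the log2 fold change was -0.0071 for *Aif1* and -0.0082 for *Fcer1g*. With the replicate block the log2 fold change was -0.018 for *Aif1*, -0.031 for *Fcer1g* and -0.029 for *Ms4a7*. With the length trend removed the log2 fold change was -0.20 for *Cd68*, -0.20 for *Aif1*, -0.33 for *Fcer1g*, -0.28 for *Tyrobp*, 0.12 for *Ptprc*, 0.28 for *Lcp1*, -0.089 for *Ctss* and -0.27 for *Pf4*. With that and the block the log2 fold change was -0.20 for *Cd68*, -0.21 for *Aif1*, -0.34 for *Fcer1g*, -0.29 for *Tyrobp*, 0.091 for *Ptprc*, 0.28 for *Lcp1*, -0.090 for *Ctss* and -0.29 for *Pf4*. With DESeq2 size factors the log2 fold change was 0.014 for *Spi1* and 0.013 for *Lcp1*. With DESeq2 the log2 fold change was 0.019 for *Spi1* and 0.014 for *Lcp1*. Without 1 sample it ranged from -0.061 to 0.17 for *Cd68*, -0.32 to 0.19 for *Aif1*, -0.32 to 0.23 for *Fcer1g*, -0.26 to 0.31 for *Tyrobp*, -0.29 to 0.23 for *Ptprc*, -0.35 to 0.17 for *Spi1*, -0.20 to 0.038 for *F13a1*, -0.28 to 0.28 for *Ms4a7*, -0.045 to 0.043 for *Lcp1*, -0.021 to 0.20 for *Itgb2*, -0.022 to 0.23 for *Ctss*, -0.27 to 0.42 for *Pf4* and -0.10 to 0.20 for *Rac2*.

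Of the limits, 3 samples per stage allow no exact p under 0.1, *Cd163* and *Timd4* rest on counts of 19 or fewer, and genes that share sequence or opposite exons with others (*Itgam*, *Lyz2*, *Fcgr3*, *Csf1r*, *Cd52*, *Mpo* and, to a lesser extent, *Il34*, *Lcp1* and *Stab1*) are uncertain.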
